A study of Homo sapiens with 5 samples.

Results

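The collagen chain genes were taken as every gene symbol of the table that reads COL, a number, A and a number. They are 44 of the 26506 symbols: 11 fibrillar, 6 basement membrane (type IV), 5 beaded-filament (type VI) and 22 other collagens. Neighbouring symbols such as COL4A3BP, which encodes a lipid transfer protein, and the pseudogenes COL6A4P1 and COL6A4P2 fall outside that form. Gene expression had been measured by poly(A) RNA sequencing in H9, an established human embryonic stem cell line, in 5 libraries with 1 library per group. Wild-type (WT) cells were grown in basal medium (labelled primed), in 2iLAF medium (labelled primed-naive) and in 5iLAF medium (labelled naive). Cells with the genotype B3GALT5-/-, here B3GALT5-KO, were grown in basal medium (labelled primed) and in 2iLAF medium (labelled naive). All groups share the H9 background. The 2iLAF and 5iLAF media are inhibitor mixtures with growth factors, made to bring human stem cells to a naive state. B3GALT5 is a galactosyltransferase of the globo-series glycolipids found on primed cells. The labels give neither the number of knockout clones nor the time in each medium.

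Collagens are triple helices of chains that carry long runs of a repeat with glycine at a fixed place. Fibrillar collagens line up into the cables of connective tissue, type IV chains form the sheet of basement membranes, and type VI chains form beaded microfibrils at the cell border. FACIT collagens sit on the surface of fibrils, and transmembrane collagens are held in the cell membrane. Pluripotent cells in culture rest on a matrix rich in basement membrane, while interstitial fibrillar collagens are known mainly as products of mesenchymal cells. Chains are hydroxylated, glycosylated and folded in the endoplasmic reticulum, then trimmed outside the cell and cross-linked by lysyl oxidases.

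Levels are given as TPM (a length-scaled share of all transcripts), so that levels of different chains can be set beside each other within a library. Each group holds 1 library, so no difference below has a replicate check, an error or a p-value. Read depth is unknown, since the table holds no counts, and a gene without signal is described as listed at 0. From 13729 to 14156 genes reached 1 TPM per library. B3GALT5 itself stood at 9.31 (WT) and 5.98 (B3GALT5-KO) TPM in basal medium, 5.13 (WT) in 2iLAF, 2.08 (WT) in 5iLAF and 1.17 (B3GALT5-KO) in 2iLAF. The edited part of that gene is not given in the sources used here, so its transcript does not check the knockout. All 10 pluripotency markers looked for, POU5F1, SOX2 and NANOG among them, reached 1 TPM in all 5 libraries. Their summed level ran from 3049 TPM in B3GALT5-KO 2iLAF to 6871 in WT basal, of which POU5F1 held 1601 and 3350. By the 2-fold rule given below, 4 were lower and 1 higher in each library labelled naive than in its basal library. The shares of all genes were 11.4% lower and 10.7% higher (WT 5iLAF), and 11.8% and 15.9% (B3GALT5-KO 2iLAF). In WT 2iLAF 5 were lower and 2 higher than in WT basal, beside 7.02% and 4.73% of all genes. In bulk RNA, a difference in the share of cells that make a collagen and a difference in transcript per cell cannot be told apart.

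Type IV chain genes lie in divergent pairs whose transcription starts face away from each other, and the sequences between those starts are shown because the members of a pair can be compared across libraries below. In the RefSeq promoter table (GRCh38.p14), 126 bases separate the starts of COL4A1 (minus strand) and COL4A2 (plus strand) at chr13:110307158-110307283. The starts of COL4A6 and COL4A5 on chromosome X lie 379 bases apart, or 1415 for another COL4A6 start in the table, and those of COL4A4 and COL4A3 on chromosome 2 lie 418 bases apart. Shown 5′ to 3′, on the plus strand for the first line and on the gene's own strand for the others, are the whole COL4A1-COL4A2 segment, the 120 bases before the starts of COL4A5 (chrX:108439718-108439837) and COL4A6 (chrX:108439459-108439578, minus strand), and the same stretch of 3 genes of other groups. Those are COL5A1 (chr9:134641683-134641802), COL12A1 (chr6:75206054-75206173, minus strand) and COL6A2 (chr21:46097992-46098111). All 3 were higher in both libraries labelled naive. Capitals mark CCAAT, the letters of the CCAAT box, and GGGCGG, the letters of the GC box, each on either strand.
COL4A1-COL4A2: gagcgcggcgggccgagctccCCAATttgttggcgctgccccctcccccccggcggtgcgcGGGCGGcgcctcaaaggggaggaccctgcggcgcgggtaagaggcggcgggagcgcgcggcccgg
COL4A5: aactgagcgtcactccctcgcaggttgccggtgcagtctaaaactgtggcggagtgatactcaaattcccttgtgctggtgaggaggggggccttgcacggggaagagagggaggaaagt
COL4A6: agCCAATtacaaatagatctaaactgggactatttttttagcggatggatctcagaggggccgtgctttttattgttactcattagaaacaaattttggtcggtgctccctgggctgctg
COL5A1: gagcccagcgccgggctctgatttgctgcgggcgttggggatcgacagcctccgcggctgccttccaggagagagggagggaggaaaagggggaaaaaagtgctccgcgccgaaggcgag
COL12A1: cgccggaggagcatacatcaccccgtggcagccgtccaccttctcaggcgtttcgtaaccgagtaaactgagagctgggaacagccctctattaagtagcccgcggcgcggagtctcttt
COL6A2: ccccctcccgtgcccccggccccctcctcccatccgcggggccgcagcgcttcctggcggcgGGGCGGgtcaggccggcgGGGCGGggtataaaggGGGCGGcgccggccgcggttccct
The COL4A1-COL4A2 segment holds 1 CCAAT and 1 GGGCGG in 126 bases, of which 80.2% are G or C. The stretch before COL4A6 is 42.5% G or C and holds 1 CCAAT, that before COL4A5 is 57.5% G or C and holds neither motif, and that before COL6A2 is 82.5% G or C and holds 3 GGGCGG. Neither motif occurs in the stretches shown for COL5A1 and COL12A1.

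Of the 44 members, 32 matched the promoter table, with 44 windows in all because some genes have several starts. COL1A1, COL1A2, COL2A1, COL3A1, COL5A2, COL6A1, COL6A5, COL8A1, COL9A3, COL14A1, COL20A1 and COL22A1 did not match. In the 250 bases before the start, CCAAT (either strand) occurred in 12 of 44 collagen windows (27.3%) against 32.0% of the 35116 windows of the table. GGGCGG (either strand) occurred in 24 (54.5%) against 42.6%, and TATAAA (either strand) in 8 (18.2%) against 10.7%. These counts describe letters only. The CCAAT and GGGCGG letters share no overlapping match in the sequences shown.

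The summed collagen level was near equal in 3 libraries and higher in the other 2. It was 801 (WT) and 838 (B3GALT5-KO) TPM in basal medium, 936 (WT) in 2iLAF, 4149.55 (WT) in 5iLAF and 8938 (B3GALT5-KO) in 2iLAF. That is 0.0801%, 0.0838%, 0.0936%, 0.415% and 0.894% of all TPM in the same order. WT 5iLAF stood 5.18-fold above WT basal, B3GALT5-KO 2iLAF 10.7-fold above B3GALT5-KO basal, and WT 2iLAF 1.17-fold above WT basal. The make-up also differed between libraries. Fibrillar collagens held 16.7%, 17.3% and 17.7% of collagen TPM in WT basal, B3GALT5-KO basal and WT 2iLAF, against 53.6% in WT 5iLAF against 64.3% in B3GALT5-KO 2iLAF. Basement membrane chains held a near-constant 14.6% to 17.3%. Beaded-filament chains held 17.8% and 23.0% in the basal libraries and between 9.28% and 10.8% in the other 3.

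**Figure D1:**
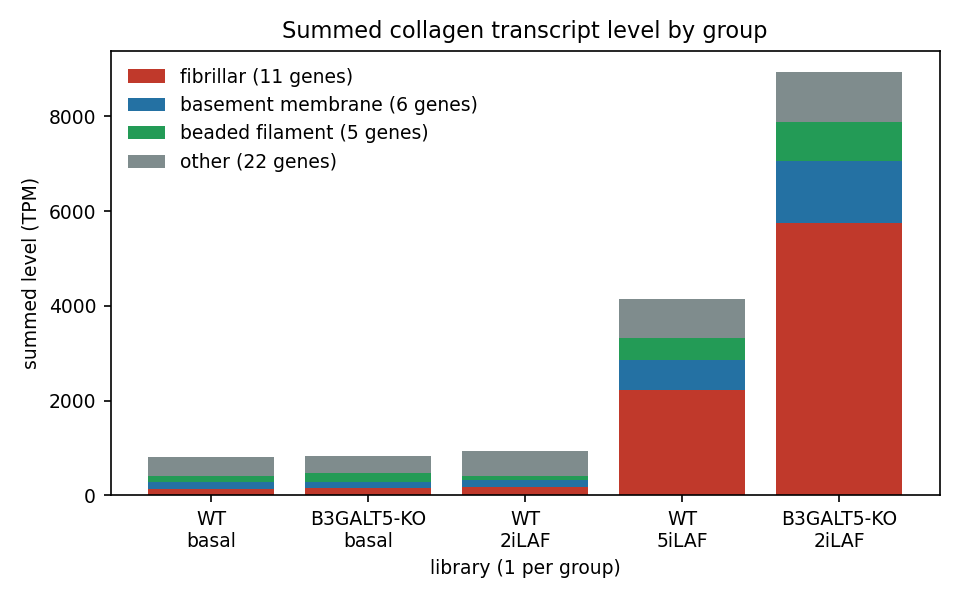
Summed level in TPM (vertical axis, from 0) of the collagen genes in each of the 5 libraries, 1 bar per library, divided into fibrillar, basement membrane, beaded-filament and other collagens. WT 5iLAF (4149.55 TPM) and B3GALT5-KO 2iLAF (8938 TPM) stand above the other 3 libraries (801 to 936 TPM), with the fibrillar part the largest in both.

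The most abundant collagen differed with the library. COL18A1, a multiplexin of basement membranes from which endostatin is cut, led WT basal, B3GALT5-KO basal and WT 2iLAF with 23.7%, 21.5% and 24.6% of collagen TPM. COL1A1 led WT 5iLAF with 19.9%, where it was the gene of rank 173 among all genes. COL3A1 led B3GALT5-KO 2iLAF with 20.9% and had rank 87 among all genes there. COL3A1, COL1A1 and COL1A2 together made up 55.1% of collagen TPM in that library.

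**Figure D2:**
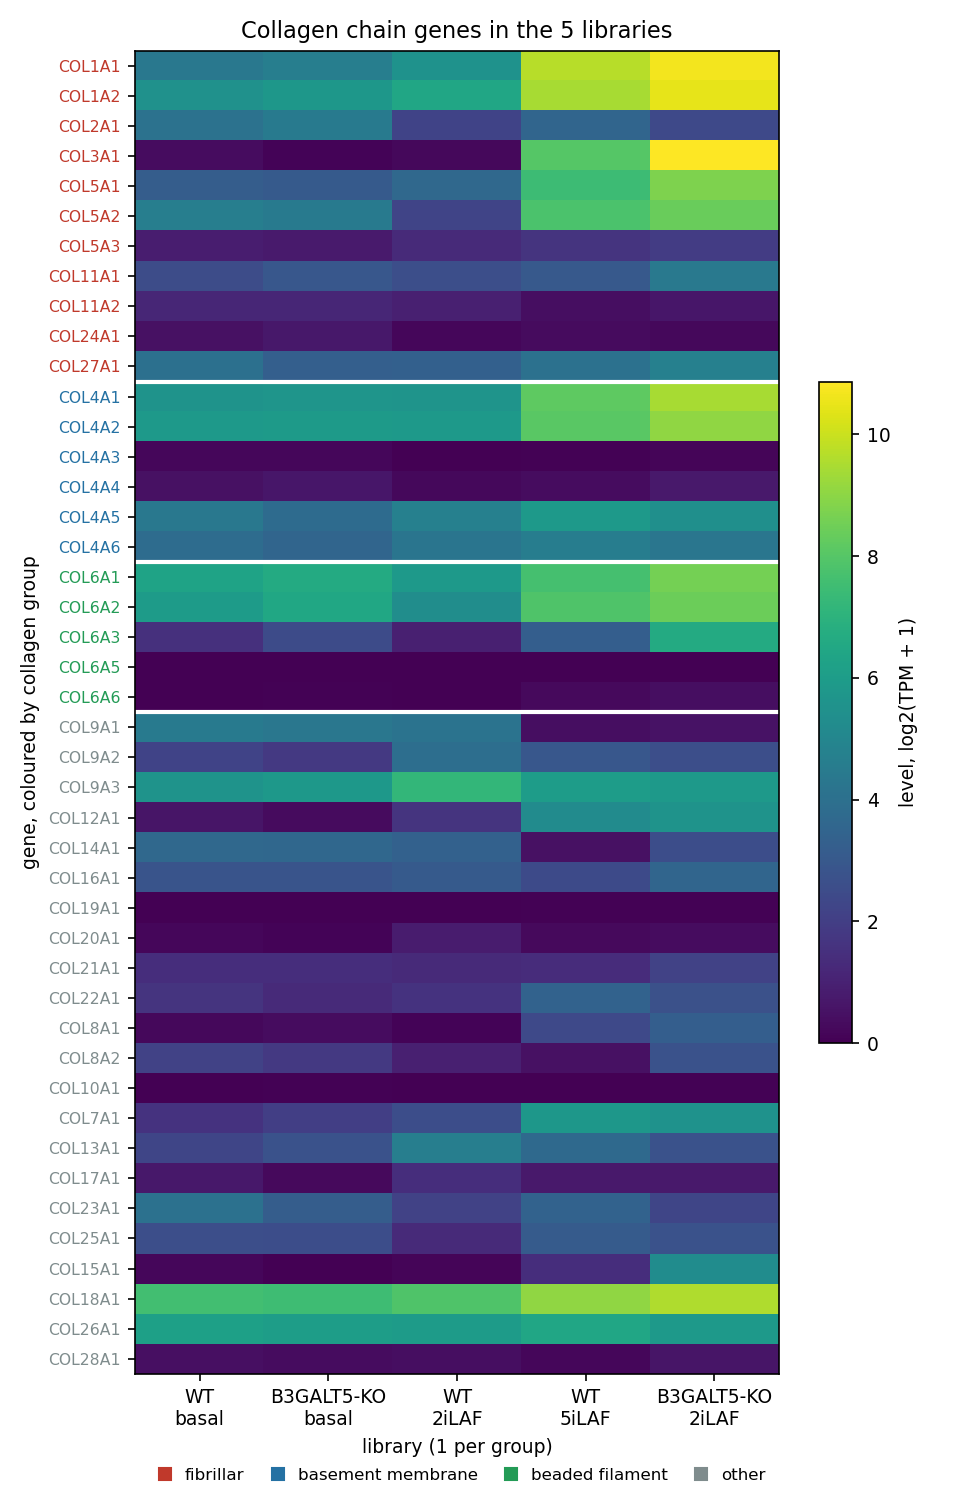
Level of each of the 44 collagen genes as log2(TPM + 1) (colour) in the 5 libraries (columns, 1 library per group), with gene names coloured by group and white lines between groups. The brightest cells are COL1A1, COL1A2 and COL3A1 in B3GALT5-KO 2iLAF, at 1629.9, 1426 and 1871 TPM, whereas COL9A1 is dark in WT 5iLAF and B3GALT5-KO 2iLAF, at 0.32 and 0.45 TPM.

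Among fibrillar collagens, COL3A1 spanned the widest range. This chain forms the homotrimer type III of vessel walls, skin and embryonic mesenchyme. It stood at 0.30 (WT) and 0.08 (B3GALT5-KO) TPM in basal medium, 0.19 (WT) in 2iLAF, 258 (WT) in 5iLAF and 1871 (B3GALT5-KO) in 2iLAF. It was thus below 1 TPM in 3 libraries and abundant in both libraries labelled naive. COL1A1 and COL1A2 encode the chains of type I collagen, the main fibril of bone, tendon and skin. COL1A1 stood at 19.4 (WT) and 24.1 (B3GALT5-KO) TPM in basal medium, 45.3 (WT) in 2iLAF, 827 (WT) in 5iLAF and 1629.9 (B3GALT5-KO) in 2iLAF. COL1A2 stood at 43.7, 53.2, 84.6, 708 and 1426 TPM in the same order. Unlike COL3A1, both type I chains were well above 1 TPM in all 5 libraries.

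Type V chains form the core on which type I fibrils start. COL5A1 stood at 8.15 (WT) and 7.57 (B3GALT5-KO) TPM in basal medium, 11.9 (WT) in 2iLAF, 173 (WT) in 5iLAF and 434 (B3GALT5-KO) in 2iLAF. COL5A2 stood at 24.3, 20.7, 3.65, 223 and 332 TPM, so that WT 2iLAF held the lowest COL5A2 but not the lowest COL5A1. COL5A2 is also the next protein-coding gene to COL3A1 on chromosome 2. Their levels parted in the basal libraries, where COL5A2 was at 24.3 and 20.7 TPM and COL3A1 at 0.30 and 0.08. COL11A1, a chain of the cartilage fibril core, stood at 4.74, 6.69, 5.11, 7.14 and 20.2 TPM and was highest in B3GALT5-KO 2iLAF. COL27A1, another minor fibrillar chain, stood at 14.9, 8.89, 9.16, 15.7 and 25.3 TPM.

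COL2A1, the cartilage fibril chain, had another order than type I and type III. It stood at 16.2 (WT) and 21.2 (B3GALT5-KO) TPM in basal medium, 3.57 (WT) in 2iLAF, 10.7 (WT) in 5iLAF and 4.23 (B3GALT5-KO) in 2iLAF. The 2 lowest values were those of the 2iLAF libraries of both genotypes. Of the remaining fibrillar chains, COL5A3 reached at most 2.79 TPM and COL11A2 at most 1.24, while COL24A1 stayed under 1 TPM.

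Basement membrane chains fell into pairs that follow the genomic pairs. COL4A1 and COL4A2 supply the trimer found in nearly all basement membranes. COL4A1 stood at 47.0 (WT) and 49.5 (B3GALT5-KO) TPM in basal medium, 48.5 (WT) in 2iLAF, 291 (WT) in 5iLAF and 705 (B3GALT5-KO) in 2iLAF. COL4A2 stood at 58.0, 59.7, 55.8, 271 and 537 TPM. Both were level in the first 3 libraries and higher in the other 2. COL4A5 and COL4A6 form a trimer of some smooth muscle and epithelial basement membranes. COL4A5 stood at 19.5, 12.9, 25.5, 55.7 and 41.9 TPM, and COL4A6 at 13.3, 10.6, 17.7, 23.5 and 18.3. Their order of libraries was the same, with WT 5iLAF highest, and differed from that of COL4A1. COL4A3 and COL4A4, known from the kidney glomerulus, stayed at or under 0.65 TPM in all 5 libraries.

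Beaded-filament collagen VI is built from the chains of COL6A1, COL6A2 and COL6A3. COL6A1 stood at 78.8 (WT) and 99.9 (B3GALT5-KO) TPM in basal medium, 55.7 (WT) in 2iLAF, 202 (WT) in 5iLAF and 387 (B3GALT5-KO) in 2iLAF. COL6A2, its neighbour on chromosome 21, stood at 61.5, 87.8, 38.7, 236.5 and 343 TPM. COL6A3, the large chain of the trimer, stood at 1.85, 4.67, 0.94, 8.58 and 99.6 TPM. All 3 were lowest in WT 2iLAF and highest in B3GALT5-KO 2iLAF, and COL6A3 was far below its partners in 4 libraries. COL6A5 and COL6A6, alternatives to that chain, were at most 0.02 and 0.32 TPM.

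Multiplexins and anchoring fibrils belong to the zone between epithelium and stroma. COL18A1 stood at 189.7 (WT) and 179.8 (B3GALT5-KO) TPM in basal medium, 231 (WT) in 2iLAF, 536 (WT) in 5iLAF and 752 (B3GALT5-KO) in 2iLAF. Its relative COL15A1 was listed at 0 in B3GALT5-KO basal and stood at 38.0 TPM in the knockout in 2iLAF, while WT cells had 0.13 in basal medium, 0.10 in 2iLAF and 1.69 in 5iLAF. COL15A1 was thus abundant in 1 library of the 5. COL7A1, the chain of the anchoring fibrils of skin, stood at 2.05 (WT) and 3.04 (B3GALT5-KO) TPM in basal medium, 5.00 (WT) in 2iLAF, 53.6 (WT) in 5iLAF and 45.9 (B3GALT5-KO) in 2iLAF.

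FACIT collagens went in different directions. COL12A1, which binds type I fibrils, stood at 0.51 (WT) and 0.26 (B3GALT5-KO) TPM in basal medium, 2.13 (WT) in 2iLAF, 37.2 (WT) in 5iLAF and 46.4 (B3GALT5-KO) in 2iLAF. COL14A1, which binds the same fibrils, stood at 11.6, 11.3, 9.34, 0.40 and 5.01 TPM, with its lowest value in WT 5iLAF where COL12A1 was high. COL16A1 stood at 6.02, 5.99, 7.35, 4.41 and 10.8 TPM. The chains of type IX, which coats cartilage fibrils, were unlike one another. COL9A1 stood at 21.4, 18.6, 16.7, 0.32 and 0.45 TPM, and was under 1 TPM in both libraries labelled naive. COL9A2 stood at 3.54, 2.51, 14.3, 6.77 and 5.05 TPM, and COL9A3 at 46.4, 55.2, 144.85, 62.8 and 56.3. The COL9A2 and COL9A3 levels were highest in WT 2iLAF.

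Transmembrane collagens were highest in WT libraries. COL13A1, a collagen of cell-matrix adhesions and the neuromuscular junction, stood at 3.81 (WT) and 5.72 (B3GALT5-KO) TPM in basal medium, 23.8 (WT) in 2iLAF, 12.1 (WT) in 5iLAF and 5.73 (B3GALT5-KO) in 2iLAF. COL23A1 stood at 15.7, 8.30, 3.36, 9.82 and 3.89 TPM. COL25A1 reached 7.71 TPM in WT 5iLAF and COL17A1, the hemidesmosome collagen, 1.70 in WT 2iLAF. COL26A1 was the steadiest of the abundant members, at 72.3, 64.7, 60.9, 86.5 and 57.6 TPM. No comparison counted it as higher or lower.

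Members at lower levels complete the family. COL8A1 and COL8A2, chains of the sheet under corneal endothelium, reached 8.50 and 5.59 TPM, both in B3GALT5-KO 2iLAF. COL21A1 reached 3.42 TPM in that library, and COL22A1, known from muscle-tendon junctions, reached 9.60 in WT 5iLAF. In all, 27 members reached 10 TPM in at least 1 library, 8 reached between 1 and 10, and 9 stayed under 1 TPM throughout. Those 9 are COL4A3, COL4A4, COL6A5, COL6A6, COL10A1, COL19A1, COL20A1, COL24A1 and COL28A1. The number at or above 1 TPM was 29 in WT basal, B3GALT5-KO basal and WT 2iLAF each, 30 in WT 5iLAF against 32 in B3GALT5-KO 2iLAF. Of the 35 that reached 1 TPM somewhere, 20 were highest in B3GALT5-KO 2iLAF, and 3 (COL3A1, COL8A1 and COL15A1) reached it only in libraries labelled naive. The matching shares over all genes were not computed, so neither count is read as particular to collagens. B3GALT5-KO 2iLAF also held the most genes at or above 1 TPM, 14156.

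In the comparisons, higher or lower was counted where log2((TPM + 1)/(TPM + 1)) was at least 1 in size, that is 2-fold, for a gene that reached 1 TPM in some library. Counts are given over all 44 members, beside the share of all 15761 genes reaching 1 TPM that were counted in the same direction. The 9 members under 1 TPM throughout could not be counted, so the member shares and the all-gene shares have unlike bases. Where a member share lies near that of all genes, neither is read as the larger. Since the 35 members that pass that level include ones that pass through a single library, their medians are given as a description only, beside those over all 44.

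The first comparison set WT cells labelled naive, in 5iLAF, against WT cells in basal medium. The main chains of type I, III, V, IV and VI were higher, with COL7A1, COL12A1 and COL18A1, while COL9A1 and COL14A1 were lower. In all, 18 of 44 members (40.9%) were higher against 10.7% of all genes, and 3 (6.82%) were lower against 11.4%. The log2 ratios were 7.64 for COL3A1, 5.35 for COL1A1, 4.66 for COL12A1, 4.25 for COL5A1, 4.16 for COL7A1 and 3.99 for COL1A2. By group, 5 of 11 fibrillar, 3 of 6 basement membrane, 3 of 5 beaded-filament and 7 of 22 other members were higher. COL9A1 (-4.08), COL14A1 (-3.17) and COL8A2 (-1.64) were lower. The median was 0.52 over all 44 members and 1.25 over the 35 reaching 1 TPM, against -0.06 over all genes doing so. COL15A1, COL6A3, COL8A1 and COL13A1 were no longer counted as higher with a pseudocount of 5, at 0.38, 0.99, 0.83 and 0.96, nor was COL8A2 counted as lower, at -0.64.

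B3GALT5-KO cells in 2iLAF were set against B3GALT5-KO basal, a comparison of the media in the knockout. COL3A1 again led, followed by COL1A1, COL5A1, COL15A1 and COL12A1, and COL9A1 was again the lowest. Higher members numbered 20 of 44 (45.5%) against 15.9% of all genes, and lower members 3 (6.82%) against 11.8%. The log2 ratios were 10.76 for COL3A1, 6.02 for COL1A1, 5.67 for COL5A1, 5.29 for COL15A1, 5.23 for COL12A1, 4.72 for COL1A2 and 4.15 for COL6A3. Here 8 of 11 fibrillar members were higher, 3 of 6 basement membrane, 3 of 5 beaded-filament and 6 of 22 other members. COL9A1 (-3.76), COL2A1 (-2.09) and COL14A1 (-1.04) were lower. The median was 0.77 over all 44 members, 1.41 over the 35 and 0.02 over all genes reaching 1 TPM. With a pseudocount of 5, COL5A3 (0.45), COL22A1 (0.70) and COL14A1 (-0.71) were not counted.

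These 2 comparisons share no library, so their members can be set beside each other. Of the 18 members higher in WT 5iLAF, 17 (94.4%) were among the 20 higher in B3GALT5-KO 2iLAF, or 85% of the latter. Over all genes the shared higher genes were 82.3% of the first list and 55.7% of the second. COL13A1 was counted as higher in WT 5iLAF alone, and COL5A3, COL11A1 and COL27A1 in B3GALT5-KO 2iLAF alone. Of 3 lower members in each, COL9A1 and COL14A1 were shared, or 66.7% of either list. Over all genes the shared lower genes were 72.2% of the first list and 69.4% of the second, so this overlap is near the background. The shared higher members include COL3A1, COL8A1 and COL15A1, which reached 1 TPM only in libraries labelled naive and so passed the filter through these libraries alone.

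**Figure D3:**
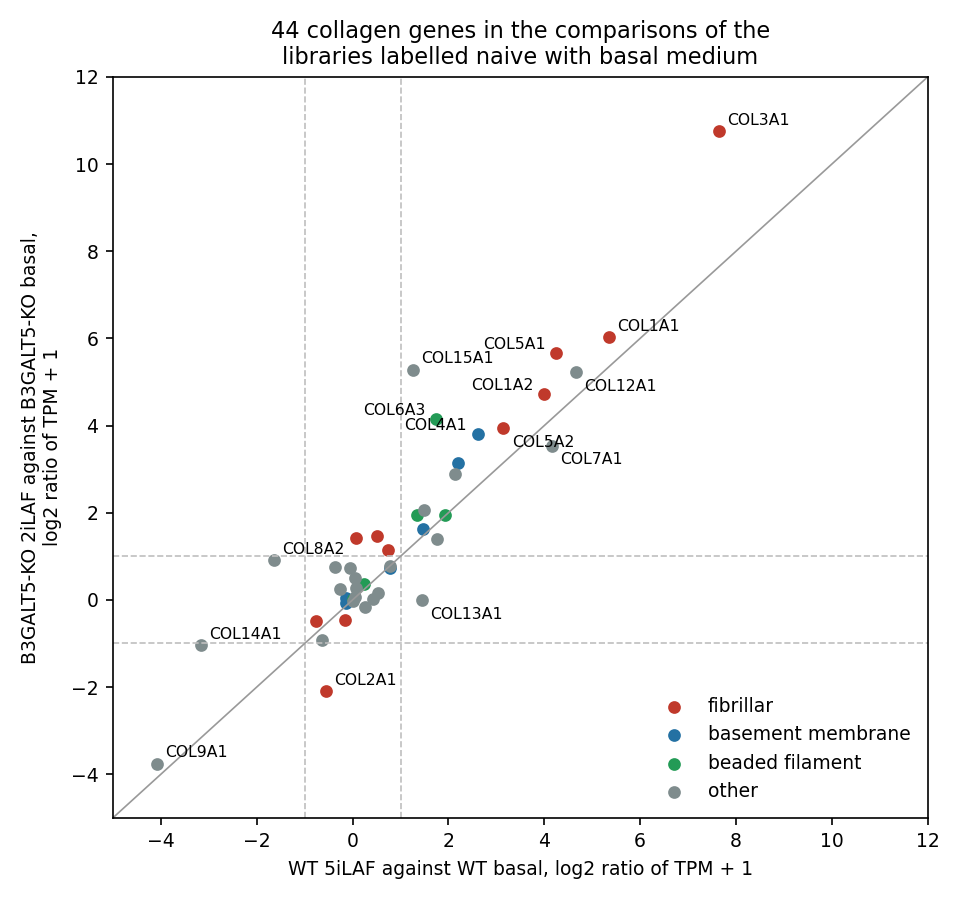
Log2 ratio of TPM + 1 of the 44 collagen genes in WT 5iLAF against WT basal (horizontal) and in B3GALT5-KO 2iLAF against B3GALT5-KO basal (vertical), 1 point per gene coloured by group. Dashed lines mark the size rule of 1 and the grey diagonal marks equal ratios. COL3A1 (7.64 and 10.76) lies at the upper right, COL9A1 (-4.08 and -3.76) at the lower left, and COL15A1 (1.25 and 5.29) and COL6A3 (1.75 and 4.15) above the diagonal.

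WT cells in 2iLAF against WT basal serve as the control of the design for that medium. COL13A1, COL9A2 and COL9A3 were higher and COL5A2, COL23A1 and COL2A1 lower, while COL3A1 stayed under 1 TPM and COL4A1 and COL4A2 were near level. In this comparison 5 of 44 members (11.4%) were higher against 4.73% of all genes, and 5 (11.4%) were lower against 7.02%. The higher log2 ratios were 2.37 for COL13A1, 1.75 for COL9A2, 1.62 for COL9A3, 1.19 for COL1A1 and 1.05 for COL12A1. The lower ones were -2.44 for COL5A2, -1.94 for COL23A1, -1.91 for COL2A1, -1.31 for COL25A1 and -1.18 for COL8A2. The median was -0.04 over all 44 members and -0.05 over the 35, against -0.13 over all genes reaching 1 TPM. Median-ratio scaling, which brings that overall median to 0, left 5 lower and gave 7 higher members, with COL1A2 at 1.12 and COL7A1 at 1.12, and moved the higher share of all counted genes from 40.2% to 54.3%. COL12A1 (0.37), COL8A2 (-0.50) and COL25A1 (-0.64) were not counted with a pseudocount of 5.

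The B3GALT5-KO and WT libraries in basal medium had the fewest counted genes of the 6 comparisons. No member of 44 was counted as higher, against 0.704% of all genes, and none as lower, against 1.05%. With 1 library per group there is no test behind these counts of 0, so no count at an unadjusted p exists. The member nearest the size rule was COL6A3, with 4.67 TPM (B3GALT5-KO) and 1.85 (WT), a log2 ratio of 0.99 that became 1.04 with median-ratio scaling and 1.29 with a pseudocount of 0.1. The median over the 35 members reaching 1 TPM was -0.03, against -0.06 over all genes doing so. COL23A1 was at 8.30 against 15.7 TPM (-0.85) and COL27A1 at 8.89 against 14.9 (-0.69). With a pseudocount of 0.1, COL3A1 (-1.15), COL15A1 (-1.20) and COL17A1 (-1.24), all under 1 TPM in both libraries, would count as lower.

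The knockout and WT libraries in 2iLAF differed far more than those in basal medium. COL3A1, the type I chains, COL6A1, COL6A2, COL6A3, COL4A1 and COL4A2 were higher in the knockout, and the type IX chains and COL13A1 lower. Of 44 members, 20 (45.5%) were higher against 16.6% of all genes, and 4 (9.09%) were lower against 10.8%. These shares have unlike bases, all 44 members against only the genes reaching 1 TPM. The 9.09% is therefore not read as below the 10.8%. The log2 ratios of this comparison were 10.62 for COL3A1, 6.16 for COL5A2, 5.70 for COL6A3, 5.15 for COL15A1, 5.14 for COL1A1 and 5.08 for COL5A1. COL4A1 and COL4A2 had 3.83 and 3.24. COL9A1 (-3.61), COL13A1 (-1.88), COL9A3 (-1.35) and COL9A2 (-1.33) were lower. The median was 0.66 over all 44 members and 1.44 over the 35, against 0.10 over all genes reaching 1 TPM. This comparison shares each of its libraries with others described here. With a pseudocount of 5, COL8A2 (0.83), COL25A1 (0.72), COL22A1 (0.57) and COL9A2 (-0.94) were not counted.

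Between the 2 libraries labelled naive, B3GALT5-KO 2iLAF stood above WT 5iLAF for 10 of 44 members (22.7%), against 4.9% of all genes, and below it for 2 (4.55%), against 1.03%. COL15A1 (3.86), COL6A3 (3.39) and COL3A1 (2.86) had the highest log2 ratios, followed by COL8A2 (2.21), COL14A1 (2.10), COL11A1 (1.38), COL5A1 (1.32), COL4A1 (1.27), COL16A1 (1.13) and COL1A2 (1.01). COL1A1 missed the rule at 0.98, as did COL4A2 at 0.98. COL2A1 (-1.16) and COL23A1 (-1.15) were lower. Genotype and medium differ together here and cannot be told apart. With a pseudocount of 5 neither was counted as lower, and COL8A2 (0.97), COL14A1 (0.89) and COL16A1 (0.75) were not counted as higher. COL1A2 (0.96) and COL16A1 (0.96) were not counted in FPKM.

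The relative levels of chains that assemble into one molecule also varied between libraries. Type I collagen holds more chains from COL1A1 than from COL1A2. The COL1A1 to COL1A2 ratio of levels was 0.443 (WT) and 0.454 (B3GALT5-KO) in basal medium, 0.535 (WT) in 2iLAF, 1.17 (WT) in 5iLAF and 1.14 (B3GALT5-KO) in 2iLAF. COL1A2 was thus the more abundant transcript in 3 libraries and COL1A1 in the other 2. The COL5A1 to COL5A2 ratio of type V ran from 0.336 in WT basal to 3.25 in WT 2iLAF, the library in which COL5A2 was lowest. The COL4A1 to COL4A2 ratio stayed between 0.809 and 1.31, and that of COL6A1 to COL6A2 between 0.854 and 1.44. Relative to COL6A1, COL6A3 was 0.0235, 0.0468, 0.0169, 0.0425 and 0.258 in the order of libraries used above. The COL9A1 to COL9A3 ratio was 0.461 (WT) and 0.337 (B3GALT5-KO) in basal medium, 0.115 in 2iLAF (WT), 0.0051 in 5iLAF (WT) and 0.0080 in 2iLAF (B3GALT5-KO). Transcript ratios do not give the make-up of the protein, which was not measured.

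**Figure D4:**
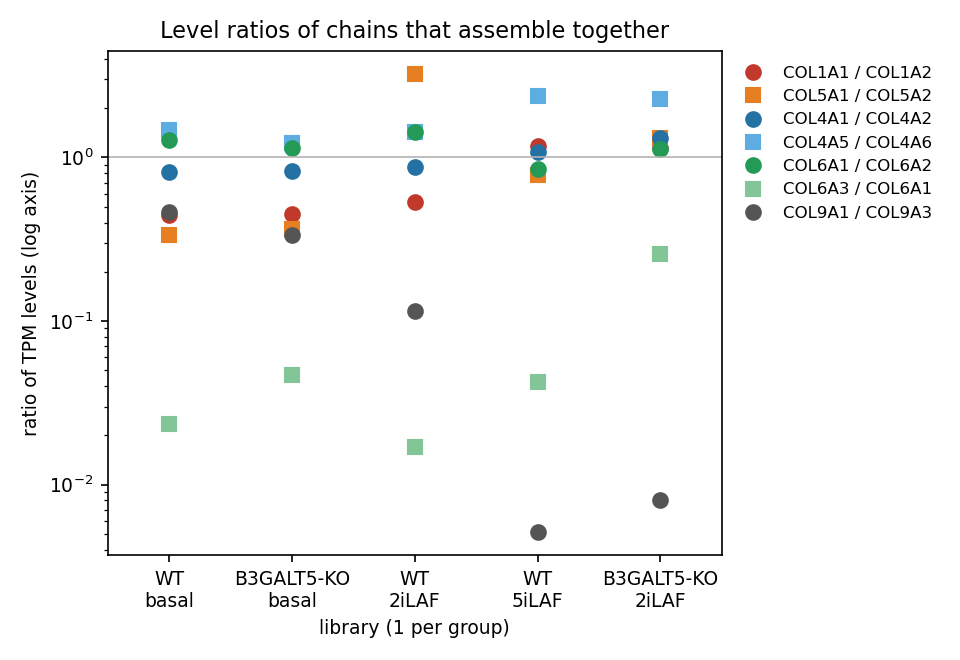
Ratio of the TPM levels of chains that assemble with each other (vertical, log axis) in the 5 libraries (horizontal, 1 library per group), 1 symbol per pair of genes, with the grey line at equal levels. COL1A1 to COL1A2 passes from 0.443 in WT basal to 1.17 in WT 5iLAF, COL4A1 to COL4A2 and COL6A1 to COL6A2 stay within 0.809 to 1.44, and COL9A1 to COL9A3 is lowest in WT 5iLAF (0.0051).

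Genes that modify, fold, trim and cross-link collagen were followed as lists of known members. Of 15 genes for prolyl and lysyl modification, 4 were higher and 0 lower in WT 5iLAF against WT basal, and 9 and 0 in B3GALT5-KO 2iLAF against B3GALT5-KO basal (medians 0.88 and 1.19), beside 10.7% and 15.9% of all genes higher, and 11.4% and 11.8% lower. PLOD2, which hydroxylates lysines at cross-linking sites, stood at 20.02 (WT) and 24.7 (B3GALT5-KO) TPM in basal medium, 8.68 (WT) in 2iLAF, 47.5 (WT) in 5iLAF and 123 (B3GALT5-KO) in 2iLAF. P4HA3, a prolyl 4-hydroxylase subunit, stood at 0.14, 0.06, 0, 8.02 and 11.4 TPM, and P3H2, a prolyl 3-hydroxylase that acts on type IV chains, at 7.22, 9.82, 6.4, 80.6 and 53.4. These 3 were highest in the libraries labelled naive. In WT 2iLAF against WT basal, 0 of the 15 were higher and 1, PLOD2, was lower, near the 4.73% and 7.02% of all genes for so short a list.

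Among 13 genes of folding and export, of which 12 reached 1 TPM, 3 were higher and 1 lower in WT 5iLAF, compared with 5 and 0 in B3GALT5-KO 2iLAF, each against its basal library, beside 10.7% higher and 11.4% lower, and 15.9% and 11.8%, over all genes. SERPINH1, the collagen chaperone HSP47, was abundant in all 5 libraries at 745, 659, 460.5, 851 and 1232 TPM. SPARC, a collagen-binding matrix protein, stood at 194, 240.4, 277, 899.5 and 2183 TPM. CREB3L1, a transcription factor that drives type I collagen in bone, stood at 11.2, 21.6, 17.8, 27.4 and 113 TPM. All 3 were highest in B3GALT5-KO 2iLAF.

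Among trimming and cross-linking enzymes, BMP1, LOX, LOXL1 and LOXL4 were highest in the libraries labelled naive. BMP1, the protease that removes the C-propeptide of fibrillar procollagens, stood at 2.94 (WT) and 2.47 (B3GALT5-KO) TPM in basal medium, 4.18 (WT) in 2iLAF, 80.9 (WT) in 5iLAF and 114 (B3GALT5-KO) in 2iLAF. It was 1 of 2 members higher of 9 in WT 5iLAF and 1 of 3 in B3GALT5-KO 2iLAF, beside 10.7% and 15.9% of all genes higher. None of the 9 was lower in either, beside 11.4% and 11.8% of all genes, which is near the background for so short a list. LOX, lysyl oxidase, stood at 0.51, 0.59, 0.19, 43.8 and 77.3 TPM, and LOXL4 at 0.37, 0.22, 0.25, 38.2 and 24.98. LOXL1 stood at 14.6, 11.3, 26.95, 69.3 and 131 TPM. Of 7 cross-linking genes, 5 were higher in both comparisons (medians 1.5 and 3.42), beside 10.7% and 15.9% of all genes. In both, 0 were lower, beside 11.4% and 11.8% of all genes, again near the background for so few. None of the 7 passed the rule in WT 2iLAF against WT basal, where 4.73% of all genes were higher and 7.02% lower, so that a count of 0 among so few is near the background.

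Receptors and degrading enzymes complete the set. DDR1, the collagen-binding receptor kinase of epithelia, stood at 135 (WT) and 123 (B3GALT5-KO) TPM in basal medium, 241 (WT) in 2iLAF, 44.9 (WT) in 5iLAF and 31.8 (B3GALT5-KO) in 2iLAF. ITGA11, the integrin subunit through which fibroblasts bind type I collagen, stood at 0.21, 0.15, 0, 12.2 and 115 TPM. DDR1 was highest and ITGA11 lowest in WT 2iLAF, and the reverse held in B3GALT5-KO 2iLAF. Of 11 receptors, 3 were higher and 3 lower in WT 5iLAF, compared with 4 and 2 in B3GALT5-KO 2iLAF, against basal medium. The shares over all genes were 10.7% and 11.4% in the first and 15.9% and 11.8% in the second. Of 11 genes of degradation and its inhibitors, 7 were higher in WT 5iLAF against 10 in B3GALT5-KO 2iLAF, beside 10.7% and 15.9% of all genes. In each, 0 were lower, beside 11.4% and 11.8% of all genes, so that this 0 is near the background for so short a list. MMP14, the membrane collagenase, stood at 64.2, 58.9, 62.0, 284 and 313 TPM, and MMP2 at 63.0, 39.4, 12.4, 212 and 246. MMP2 was lowest in WT 2iLAF. In that library 3 of the 11, MMP2, MMP9 and CTSK, were lower than in WT basal, beside 7.02% of all genes.

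**Figure D5:**
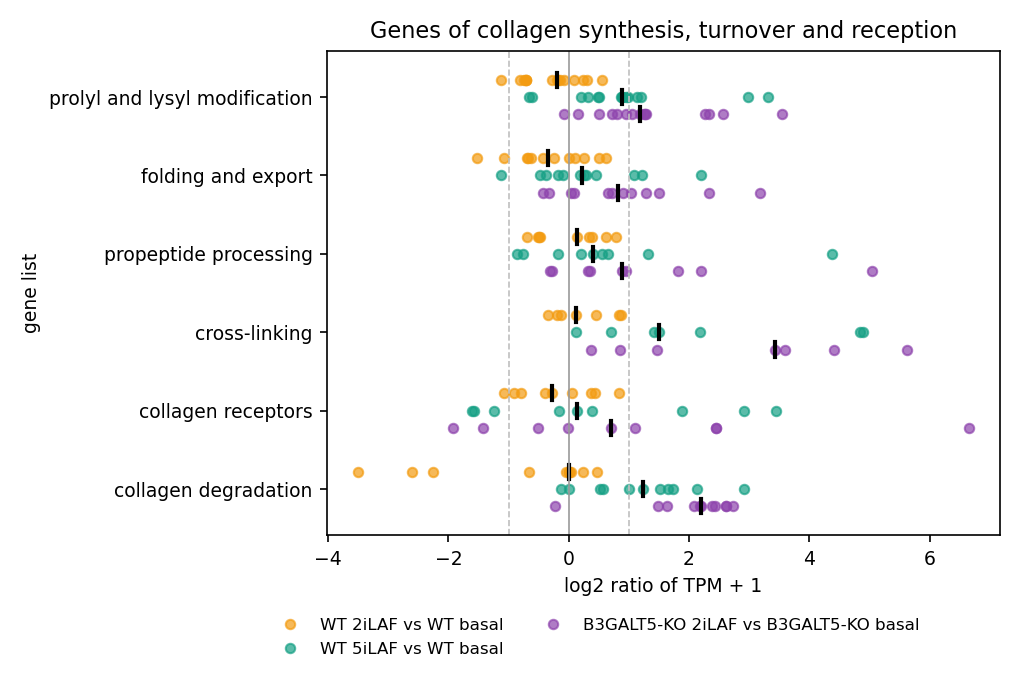
Log2 ratio of TPM + 1 (horizontal) of genes that reached 1 TPM in 6 lists of collagen synthesis, turnover and reception (rows), for WT 2iLAF and WT 5iLAF against WT basal and B3GALT5-KO 2iLAF against B3GALT5-KO basal. Points are genes, black bars are list medians, and dashed lines mark the size rule of 1; the cross-linking medians are 0.12, 1.5 and 3.42 in that order.

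Summed markers of mesenchyme, smooth muscle and extraembryonic endoderm were higher in both libraries labelled naive than in the others. Blood markers had another order. Of 10 fibroblast and mesenchyme markers, 2, 2, 3, 8 and 9 reached 1 TPM in the libraries in the order used above, and their sums were 38.7, 52.1, 26.2, 161 and 708 TPM. DCN, PRRX1 and FAP were listed at 0 in both basal libraries, and LUM, lumican, stood at 18.0 TPM in WT 5iLAF against 438 in B3GALT5-KO 2iLAF. Sums of 7 smooth muscle markers, of which MYH11 stayed under 1 TPM throughout, were 103, 271, 602, 2654 and 3568 TPM. Sums of 8 extraembryonic endoderm markers, which share PDGFRA and SPARC with other lists used here, were 244, 290.1, 357, 1201 and 2644 TPM. Most of each sum was SPARC, also a member of the folding and export list, at 194, 240.4, 277, 899.5 and 2183 TPM. The 7 blood markers summed to 187, 0.97, 0.06, 10.9 and 1070.28 TPM, and all 7 reached 1 TPM in B3GALT5-KO 2iLAF only. The blood sum was thus lower in WT 5iLAF than in WT basal. By the size rule, 3 of the 7 were lower and 1 higher there, beside 11.4% and 10.7% of all genes. The 3 lower were the globins HBB, HBA1 and HBG2, at 140, 22.9 and 23.7 TPM in WT basal, almost all of that sum. The 1 higher was PTPRC, at 0.04 TPM in WT basal and 1.57 in WT 5iLAF. The part of these cell types in the collagen values was not tested.

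For other tissues, 2 of 6 cartilage markers were higher in each library labelled naive than in its basal library. The shares of all genes were 10.7% (WT 5iLAF) and 15.9% (B3GALT5-KO 2iLAF). Sums for bone, endothelium and keratinocytes were not highest in the libraries labelled naive. Of 6 chondrocyte markers 3 (ACAN, MATN1 and COMP) stayed under 1 TPM in all libraries, and the sums were 18.9, 14.9, 21.4, 86.3 and 78.3 TPM, most of it MATN3 and HAPLN1 in the libraries labelled naive. SOX9, the chondrocyte regulator, stood at 5.12, 4.2, 5.34, 3.71 and 4.06 TPM, lowest in those same libraries. The 6 osteoblast markers summed to 152, 150.45, 272, 129 and 84.96 TPM, almost all of it ALPL, a phosphatase that embryonic stem cells also carry, with IBSP listed at 0 throughout. Endothelial markers (7) summed to 36.3, 48.6, 15.4, 12.9 and 31.8 TPM, and PECAM1 and CDH5 stayed under 1 TPM. The 5 basal keratinocyte markers summed to 2.44, 3.48, 11.2, 6.13 and 5.75 TPM.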

How the data were processed

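Poly(A) RNA of H9 cells was sequenced in 5 libraries made with a stranded TruSeq kit, per the labels' protocols. Trimmomatic 0.39, Bowtie2 2.3.4.1, RSEM 1.2.28 and genome build hg19 are named in the submitters' processing notes. No source used here gives the annotation or RSEM's strand setting, so overlapping antisense genes may not be separable; COL18A1-AS1, COL18A1-AS2 and COL4A2-AS1 were listed at 0. The authors deposited 1 table of 26506 symbols with TPM and FPKM values per library, per the file headers. A further 18 columns were empty. Read depth is unknown, so no counting interval is given. RSEM assigns ambiguous reads by estimation, which can shift signal between alike chains.

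Samples were grouped by the labels, 1 library per group. From the TPM values, 6 comparisons were made as log2((TPM + 1)/(TPM + 1)) over the 15761 genes reaching 1 TPM in some library, with a size rule of 1. No test was possible. Members reaching 10 TPM are given in every library, others by their highest level; of each collagen pathway list, up to 6 members at or above 10 TPM with the largest spread could be named, and from marker lists the defining genes. ALPL, MATN3, HAPLN1, PTPRC, the globins and, as an endoderm marker, SPARC were named after their values were seen. The members, lists and rules were chosen with earlier results of these data known. The alternatives were FPKM, median-ratio scaling, a filter of 5 TPM or none, and pseudocounts of 0.1 or 5. Promoter sequences are RefSeq's (GRCh38.p14), matched by symbol, whereas the values were made on hg19. Scripts ran under Python 3.11.15 with matplotlib 3.10.9, scipy 1.17.1, pandas 2.3.3 and numpy 2.4.6, and the counting was tested on simulated data.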

Additional observations from a re-analysis of the deposited data

Results flagged for a closer look

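COL5A2, the second chain of type V collagen, responded to 2iLAF in opposite directions in the 2 genotypes by more than the size rule. In WT cells it stood at 3.65 TPM in 2iLAF against 24.3 in basal medium (log2 ratio -2.44), and in B3GALT5-KO cells at 332 against 20.7 (log2 ratio 3.94). The log2 ratios differ by 6.38. With 1 library per group the difference was not tested. It was the 1 member of the 35 reaching 1 TPM that passed the size rule in both genotypes with opposite sign. The matching share over all genes was not computed, so this count is not read as particular to collagens.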

How the results depend on the processing

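No paired analysis was possible because each group holds 1 library, and for the same reason no library could be left out. Of the 12 counts of members (higher and lower in 6 comparisons), all stayed within 1.5 times without the filter and with a filter of 5 TPM. A pseudocount of 0.1 gave 1 higher and 3 lower members for B3GALT5-KO basal against WT basal, in place of 0 and 0, and median-ratio scaling gave 1 higher. For WT 2iLAF against WT basal, 3 members in place of 5 were lower both with a pseudocount of 5 and in FPKM. For B3GALT5-KO 2iLAF against WT 5iLAF, a pseudocount of 5 gave 0 lower members in place of 2. A pseudocount of that size weighs most on genes of low TPM; beyond that the cause was not tested. In the comparison of basal libraries all genes also moved, from 111 higher and 166 lower to 327 and 521 with a pseudocount of 0.1 and to 34 and 40 with 5. Over all genes, the counts for B3GALT5-KO 2iLAF against WT 5iLAF went from 772 and 163 to 1211 and 500 with 0.1 and to 292 and 31 with 5. In FPKM those were 70 and 90 for the basal libraries and 498 and 91 between the libraries labelled naive, and with a filter of 5 TPM 73 and 109, and 464 and 107. For WT 2iLAF against WT basal, all genes went from 745 and 1107 to 1209 and 1791 with a pseudocount of 0.1, 351 and 455 with 5, and 654 and 679 in FPKM. With a pseudocount of 5 the counts went from 1694 and 1793 to 922 and 795 (WT 5iLAF against WT basal), from 2503 and 1867 to 1351 and 878 (B3GALT5-KO 2iLAF against its basal library) and from 2622 and 1706 to 1416 and 779 (against WT 2iLAF). No counted member changed sign under any of the 6 alternatives. Of 210 single-gene ratios, 20 lost their call with a pseudocount of 5, 16 gained one with 0.1, and 9 lost and 1 gained one in FPKM. Unknown depth limits all members under 1 TPM.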
